A study of Mus musculus with 9 samples.

Results

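Of the 24411 genes listed for each mouse, 9 were followed as markers of the hippocampal subfields: Fibcd1, Mpped1, Wfs1 and Pou3f1 for CA1, Bok for CA3, and Prox1, Dsp, C1ql2 and Calb1 for the dentate gyrus. They were chosen by symbol, and each was listed once. The hippocampi of 9 male C57BL/6J mice, wild type and given as 10 weeks old in the labels (9 weeks at injection in the study's methods), were taken 10 days after adeno-associated virus serotype 9 (AAV9) had been injected into CA1 on both sides. The virus carried Egfp, the gene of a green fluorescent protein, with CTG repeats in its 3′-UTR. In 3 CUG10 mice it carried 10 repeats and was given with vehicle, in 3 CUG300 mice it carried 300 repeats and was given with vehicle, and in 3 further CUG300 mice it carried 300 repeats and was given with 83 μg/kg of CWG-cPIP. CWG-cPIP is a cyclic pyrrole-imidazole polyamide, a small molecule that binds CAG and CTG repeat DNA, double-stranded or as a mismatched hairpin. The study also found high affinity for CCG repeat DNA. All 9 mice therefore received the virus and the injection, and uninjected mice were not analysed here. The promoter that drives Egfp is not given in the sources used here, so which cells made the repeat RNA cannot be told from them.

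The hippocampus is a chain of subfields. Granule cells of the dentate gyrus send mossy fibres to CA3, CA3 pyramidal cells send Schaffer collaterals to CA1, and CA1 sends the output onward. Each subfield has its own pyramidal or granule cells with their own set of expressed genes, and such genes serve as markers of where RNA in a tissue sample came from. Long CUG repeat RNA, the product of CTG repeats, gathers in nuclear foci that hold Muscleblind-like splicing proteins. It is the toxic RNA of the form of myotonic dystrophy that CTG repeats cause. Because RNA was taken from whole hippocampi, fewer cells of a type and less RNA per cell cannot be told apart, and whether each gene marks its subfield could not be checked in these samples.

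CWG-cPIP binds CAG and CTG repeats, so the longest run of either triplet in the annotated transcripts of each marker is shown first (GRCm38, GENCODE M21), in capitals with 6 bases on each side, read 5′ to 3′ along the gene's strand. These are the CA1 and CA3 markers.
Fibcd1: gcggtgCTGCTGgcggtg
Mpped1: tgccgcCTGCTGCTGggacct
Wfs1: accgacCTGCTGCTGcgcttc
Pou3f1: ccgtgcCTGCTGcacttt
Bok: acagtgCTGCTGcgcttg
The dentate markers follow.
Prox1: ctgcccCAGCAGCAGcaacag
Dsp: aacgccCAGCAGCAGaaggcc
C1ql2: gtgcctCTGCTGCTGcaggcg
Calb1: ttctttCTGCTGgagaca
The runs were 3 triplets long in Mpped1, Wfs1, Prox1, Dsp and C1ql2 and 2 triplets long in Fibcd1, Pou3f1, Bok and Calb1. Over 21951 protein-coding genes the median longest run was 2 triplets and the longest 25, and 28.5% of genes held at least 3. The run of Mpped1 lies in its 3′ UTR on the plus strand (chr15:83856549-83856557), that of Pou3f1 in its 5′ UTR on the plus strand (chr4:124656917-124656922), and the other 7 lie in coding exons. Fibcd1 and Mpped1 were the pair of markers whose levels differed between the CUG10 and vehicle-treated CUG300 mice. Their longest runs in annotated transcripts differ, and Wfs1, Prox1, Dsp and C1ql2 hold transcript runs as long as that of Mpped1. Introns and promoters were left out of this search, although CWG-cPIP binds DNA. The promoter of Fibcd1 holds a CTG run of 3 triplets. Whether the runs bear on the levels of these genes was not tested. A run is a description of the letters and shows no binding.

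The genes lie on 6 chromosomes in GRCm38. Fibcd1, which encodes a membrane protein that binds acetylated sugars, spans chr2:31813290-31846005 on the minus strand. Mpped1, which encodes a metallophosphoesterase-domain protein, spans chr15:83779467-83858494 on the plus strand. Wfs1 (chr5:36966104-36989205, minus) encodes wolframin, a membrane protein of the endoplasmic reticulum, and Pou3f1 (chr4:124656807-124660655, plus) a POU-domain transcription factor. Bok, a member of the Bcl-2 family of cell death regulators, spans chr1:93685660-93695764 on the plus strand. Prox1 (chr1:190118035-190170714, minus) encodes the homeobox transcription factor that maintains granule cell identity, and Dsp (chr13:38151294-38198577, plus) encodes desmoplakin, a plaque protein of desmosomes. C1ql2 (chr1:120340582-120343174, plus) encodes a secreted C1q-like protein of mossy fibre synapses. Calb1 (chr4:15881264-15908064, plus) encodes calbindin, a calcium-binding protein that is also known from superficial CA1 pyramidal cells and some interneurons. Genes annotated on the opposite strand overlap 3 of them: Gm2164 overlaps Pou3f1, Gm28172 and Prox1os overlap Prox1, and Gm10129 overlaps Dsp. The library kit was directional, but the use of strand in counting is not stated, so reads of these pairs may not have been told apart.

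The promoters of Fibcd1 and Mpped1 are shown because these are the CA1 markers that moved together, with that of C1ql2 as a dentate marker beside them. Each runs from 250 bases before to 50 after the start in RefSeq (GRCm38.p6), with the GC box GGGCGG, on either strand, in capitals.
Fibcd1, chr2:31845956-31846255, minus strand: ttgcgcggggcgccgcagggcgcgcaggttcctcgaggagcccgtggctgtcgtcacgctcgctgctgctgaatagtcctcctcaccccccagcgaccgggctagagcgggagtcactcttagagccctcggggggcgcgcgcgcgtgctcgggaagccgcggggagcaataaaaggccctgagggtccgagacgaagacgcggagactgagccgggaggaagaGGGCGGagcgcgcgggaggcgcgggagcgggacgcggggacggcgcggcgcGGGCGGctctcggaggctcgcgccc
Mpped1, chr15:83779773-83780072, plus strand: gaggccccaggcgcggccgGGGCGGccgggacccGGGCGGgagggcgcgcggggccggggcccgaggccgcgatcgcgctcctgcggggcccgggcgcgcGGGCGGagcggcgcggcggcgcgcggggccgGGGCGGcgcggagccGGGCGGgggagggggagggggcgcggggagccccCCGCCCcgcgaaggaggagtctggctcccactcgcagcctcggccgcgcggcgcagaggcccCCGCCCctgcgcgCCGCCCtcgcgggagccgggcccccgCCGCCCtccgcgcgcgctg
C1ql2, chr1:120340332-120340631, plus strand: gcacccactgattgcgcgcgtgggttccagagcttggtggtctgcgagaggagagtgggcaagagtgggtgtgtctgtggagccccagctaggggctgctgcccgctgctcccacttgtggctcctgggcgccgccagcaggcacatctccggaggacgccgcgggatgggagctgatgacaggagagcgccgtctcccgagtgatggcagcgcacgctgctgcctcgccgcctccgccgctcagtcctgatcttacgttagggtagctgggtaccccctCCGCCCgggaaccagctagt
The GC box was found 2 times in the Fibcd1 promoter, 9 times in this Mpped1 promoter and 1 time in the C1ql2 promoter, and at least once in 35.7% of 32851 promoters. GC content was 74.3%, 89.3% and 67.3%, against a median of 52.7% over all promoters. A second Mpped1 promoter (chr15:83784579-83784878) held none of the motifs searched. RefSeq promoters were matched for 7 of the 9 markers, not for Pou3f1 and Calb1. The other motifs searched on both strands were the TATA box TATAAA (in 13.6% of all promoters), the E-boxes CAGCTG (16.3%) and CAGATG (17.2%), and the octamer ATTTGCAT (1.74%). None of these was found in the 3 promoters shown. A match describes the letters and is no sign of a bound factor.

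Values are given as regularized logarithms (rlog) of counts to the base 2, in which a difference of 1 is a 2-fold difference shrunken toward the gene's mean. They are not scaled by gene length, so levels are compared between mice and not between genes. No counts were given, so the depth of each library is unknown. Median rlog values of the tested genes ranged from 8.43 to 8.54 over the mice. Changes were tested with limma across 14867 genes whose mean rlog value was at least log2(10), all 9 markers among them, and a gene was called at a Benjamini-Hochberg adjusted p under 0.05 over all tested genes. All p-values rest on 3 mice a group.

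The first comparison asks what 300 repeats rather than 10 did to the subfield markers when both kinds of mice had vehicle. Fibcd1 and Mpped1, both CA1 markers, were lower in the CUG300 mice, and the other 7 markers were not called. In the CUG10 mice Fibcd1 stood at 10.94, 10.74 and 10.79, in the vehicle-treated CUG300 mice at 10.37, 9.99 and 9.70, and in the CWG-cPIP-treated CUG300 mice at 10.64, 10.78 and 10.62. Every vehicle-treated CUG300 mouse was below every other mouse. Fibcd1 fell by 0.80 on the log2 scale (95% interval -1.15 to -0.45, SE 0.15, n = 3 and 3 mice, limma adjusted p = 0.0241), from 10.82 ± 0.11 (SD) to 10.02 ± 0.33, a level 1.74-fold lower. Mpped1 stood at 11.52, 10.84 and 11.08 in the CUG10 mice, at 10.54, 10.30 and 10.32 in the vehicle-treated CUG300 mice, and at 10.92, 11.18 and 10.80 with CWG-cPIP. Again the vehicle-treated CUG300 mice were the lowest 3 of the 9. Mpped1 fell by 0.76 (-1.16 to -0.37, SE 0.18, limma adjusted p = 0.0319), from 11.15 ± 0.35 to 10.39 ± 0.13, a level 1.70-fold lower.

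The remaining CA1 markers gave other values. Wfs1 stood at 10.72, 10.96 and 11.03 in the CUG10 mice and at 10.78, 10.96 and 10.92 in the vehicle-treated CUG300 mice, and the groups overlapped. The difference was -0.02 (95% interval -0.28 to 0.25, limma adjusted p = 0.935), an interval that leaves out the changes of -0.80 and -0.76 of Fibcd1 and Mpped1, although the differences between genes were not tested. Pou3f1 stood at 10.70, 10.38 and 10.36 in the CUG10 mice and at 10.81, 9.99 and 10.77 in the vehicle-treated CUG300 mice, of which mouse 2 lay apart from the others. Its difference was 0.05 (-0.47 to 0.56, adjusted p = 0.908). The 4 CA1 markers therefore did not move as one, and their median difference was -0.39, beside -0.011 over all tested genes.

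Of all tested genes 10.7% were called in this comparison, 3.34% as lower, and 16.7% were lower and 18.2% higher without overlap between the groups. Among the 9 markers 2 were called, both lower and without overlap, and 0 were higher without overlap. The calls over all genes were 1096 higher and 496 lower, with 1014 and 908 after centering each mouse on its median and 888 and 642 after quantile scaling. In both scalings Fibcd1 and Mpped1 were still called lower. Fibcd1 and Mpped1 were each called in 4 of the 9 fits with 1 mouse left out, each of which has fewer mice. Without CUG10 mouse 1, 2 or 3 the adjusted p of Fibcd1 was 0.0880, 0.0663 and 0.102 and that of Mpped1 0.0911, 0.0614 and 0.111. Without vehicle-treated CUG300 mouse 3 they were 0.0917 and 0.117, and without CWG-cPIP mouse 1, which enters only through the shared spread, 0.0512 and 0.0609. The direction held with each mouse left out, and the change ranged from -0.98 to -0.64 for Fibcd1 and from -0.92 to -0.57 for Mpped1. Over all genes the number called fell to 0 without CUG10 mouse 1, CUG10 mouse 3 or vehicle-treated CUG300 mouse 3, to 2 without CUG10 mouse 2 and to 265 without CWG-cPIP mouse 1, and rose to 2489 without vehicle-treated CUG300 mouse 2.

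**Figure D1:**
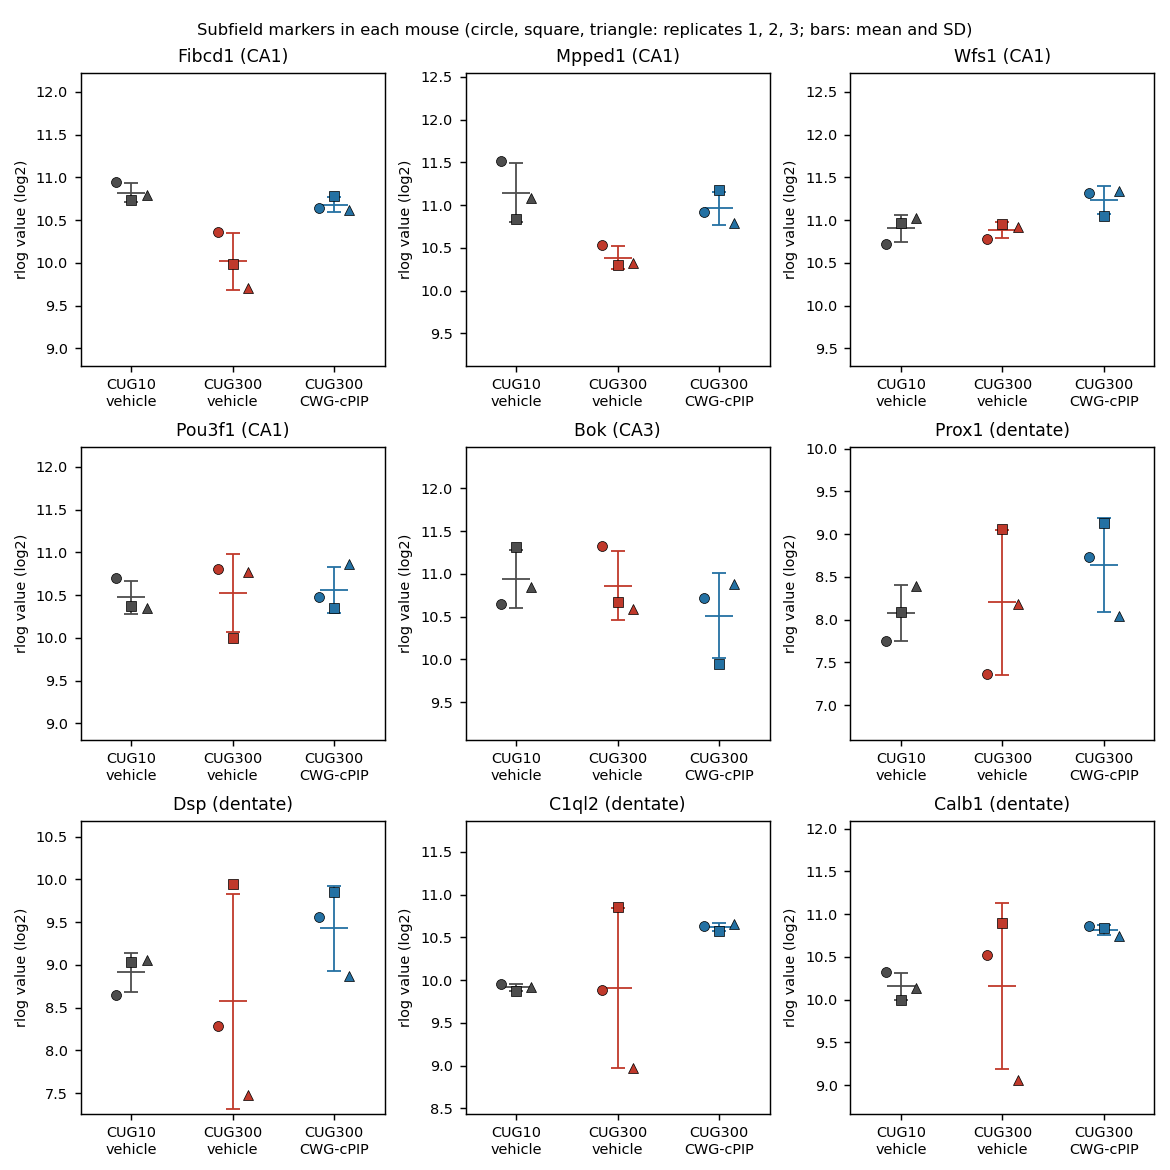
rlog value (log2 scale, y axis) of each of the 9 markers in each mouse of the 3 groups (x axis), with circle, square and triangle for mice 1, 2 and 3 and bars for the mean and SD; every panel spans the same range of log2 units. The vehicle-treated CUG300 mice are the lowest 3 for Fibcd1 and Mpped1, and for Dsp, C1ql2 and Calb1 they spread wider than the other groups.

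CA3 was represented by Bok. Its values were 10.65, 11.31 and 10.85 in the CUG10 mice, 11.32, 10.67 and 10.59 in the vehicle-treated CUG300 mice and 10.72, 9.94 and 10.88 with CWG-cPIP. The 3 groups overlapped. Bok differed by -0.07 between vehicle-treated CUG300 and CUG10 mice (95% interval -0.73 to 0.58, limma adjusted p = 0.887), an interval that reaches nearly to the change of Mpped1.

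The dentate markers differed far more between the vehicle-treated CUG300 mice than between the groups. Prox1 stood at 7.75, 8.09 and 8.40 in the CUG10 mice, 7.36, 9.06 and 8.19 in the vehicle-treated CUG300 mice and 8.73, 9.13 and 8.05 with CWG-cPIP. Dsp stood at 8.65, 9.04 and 9.05, then 8.28, 9.95 and 7.48, then 9.56, 9.85 and 8.88, in the same order of groups and mice. In both genes vehicle-treated CUG300 mouse 2 was the highest of its group, and in Dsp mouse 3 was the lowest of all 9. C1ql2 was nearly level in the CUG10 mice (9.95, 9.88 and 9.92) and in the mice given CWG-cPIP (10.63, 10.57 and 10.66), but spread from 8.98 to 10.85 in the vehicle-treated CUG300 mice (9.89, 10.85 and 8.98). Calb1 did the same, with 10.32, 10.00 and 10.14 in the CUG10 mice, 10.53, 10.90 and 9.06 in the vehicle-treated CUG300 mice and 10.86, 10.84 and 10.74 with CWG-cPIP. For both genes vehicle-treated CUG300 mouse 2 was above every mouse given CWG-cPIP, and mouse 3 was below every other mouse.

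Between vehicle-treated CUG300 and CUG10 mice none of the 4 dentate markers was called. The differences were 0.12 for Prox1 (95% interval -0.82 to 1.07), -0.34 for Dsp (-1.55 to 0.87), -0.01 for C1ql2 (-0.84 to 0.82) and 0.01 for Calb1 (-0.86 to 0.88), with limma adjusted p from 0.703 to 0.990. These intervals are wider than those of Fibcd1 and Mpped1 and all reach below -0.80, so a fall as large as that of Fibcd1 would not have been detectable. The SD within the vehicle-treated CUG300 group was 0.85 for Prox1, 1.26 for Dsp, 0.94 for C1ql2 and 0.97 for Calb1. Of all tested genes 99.4%, 99.9%, 99.6% and 99.7% had a smaller SD in that group, where the median SD was 0.22. In the CUG10 group the 4 SDs were 0.32, 0.23, 0.040 and 0.16 (median of all tested genes 0.10), and with CWG-cPIP they were 0.55, 0.50, 0.048 and 0.060 (median 0.14). Which mouse is left out set the sign of all 4 differences: without vehicle-treated CUG300 mouse 3 that of C1ql2 was 0.45, and without mouse 2 it was -0.48.

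**Figure D2:**
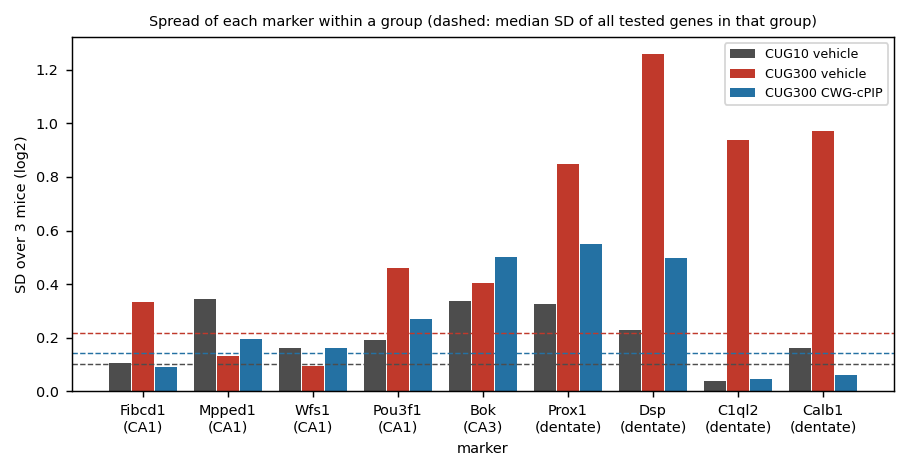
SD over the 3 mice of a group (log2 scale, y axis) for each marker (x axis), 1 bar per group, with dashed lines at the median SD of all tested genes in each group. The 4 dentate markers have SDs from 0.85 to 1.26 in the vehicle-treated CUG300 mice, where the median gene has 0.22.

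The dentate markers moved together from mouse to mouse. Over the 9 mice the Pearson correlation of their rlog values was 0.95 between C1ql2 and Calb1, 0.88 between Dsp and C1ql2, 0.81 between Dsp and Calb1 and 0.74 between Prox1 and Dsp, and all 6 pairs were positive (lowest 0.35, Prox1 and Calb1). Among the 6 pairs of CA1 markers the median was 0.04 and the highest was that of Fibcd1 and Mpped1 (0.91 over the mice and 0.61 after subtracting the group means), the next being 0.12. Pou3f1 ran against Prox1 (-0.77) and Dsp (-0.77). These are descriptions over 9 mice that share their groups and tissue dissection, and no p is given. A level per mouse was made by averaging the centred rlog values of the markers of a subfield. The dentate level was -0.28, -0.20 and -0.072 in the CUG10 mice, -0.44, 0.74 and -1.02 in the vehicle-treated CUG300 mice and 0.49, 0.65 and 0.13 with CWG-cPIP. The CA1 level was 0.25, 0.011 and 0.096, then -0.095, -0.41 and -0.29, then 0.12, 0.12 and 0.19. Vehicle-treated CUG300 mouse 2 thus had the highest dentate and the lowest CA1 level of all mice, while mouse 3 had the lowest dentate level with a low CA1 level. The CA1 markers did not share this order. In mouse 2 Pou3f1 was the lowest of all mice (9.99) and Wfs1 the highest of its group (10.96). Mpped1 was close in mice 2 and 3 (10.30 and 10.32), and Fibcd1 was lowest in mouse 3 (9.70). The difference of the CA1 and dentate levels was 0.34, -1.15 and 0.73 in the vehicle-treated CUG300 mice, and 0.54, 0.21 and 0.17 in the CUG10 mice.

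**Figure D3:**
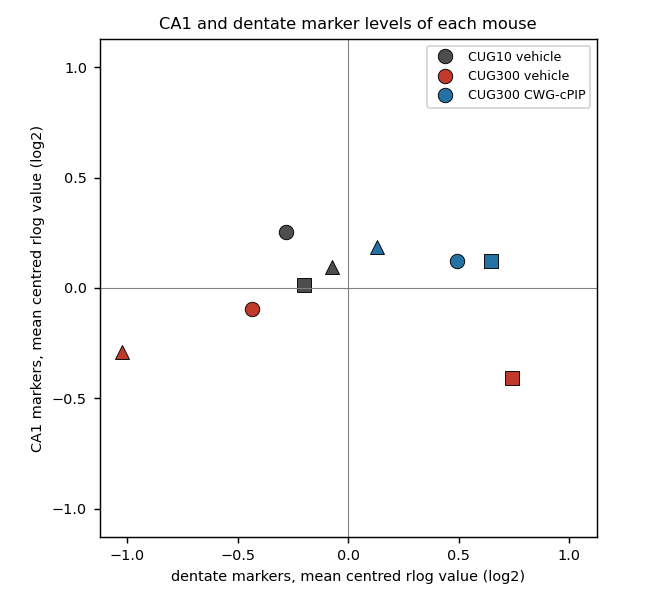
Mean centred rlog value (log2 scale) of the 4 CA1 markers (y axis) against that of the 4 dentate markers (x axis), 1 point per mouse, coloured by group, with circle, square and triangle for mice 1, 2 and 3. The vehicle-treated CUG300 mice lie lowest on the CA1 axis and span the dentate axis from -1.02 to 0.74.

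The second comparison asks what CWG-cPIP changed in CUG300 mice, and it shares the vehicle-treated CUG300 mice with the first. No gene was called among the 14867 tested (0% called, smallest limma adjusted p = 0.483), and an unadjusted p under 0.05 was reached by 777 higher and 535 lower genes. With only the 2 groups compared in the fit, 3 genes were called, none of them a marker. All 4 CA1 markers had higher means with CWG-cPIP, 3 of them without overlap, where 4.97% of all tested genes were higher and 3.5% lower without overlap. Fibcd1 differed by 0.66 (95% interval 0.31 to 1.01, unadjusted p = 0.00209), Mpped1 by 0.58 (0.18 to 0.98, unadjusted p = 0.00904), and the limma adjusted p was 0.483 for both. Both rest on the same low vehicle-treated CUG300 values as the first comparison. Wfs1 stood at 11.31, 11.04 and 11.34 with CWG-cPIP, above all 6 other mice. It differed by 0.35 from the vehicle-treated CUG300 mice (0.08 to 0.61, unadjusted p = 0.0162, limma adjusted p = 0.483). Pou3f1, at 10.47, 10.35 and 10.86 with CWG-cPIP, differed by 0.04 (-0.48 to 0.55) and overlapped, and Bok differed by -0.35 (SE 0.29, limma adjusted p = 0.554).

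The dentate markers also had higher means with CWG-cPIP than with vehicle, by 0.43 for Prox1 (95% interval -0.51 to 1.38), 0.85 for Dsp (-0.35 to 2.06), 0.72 for C1ql2 (-0.12 to 1.55) and 0.65 for Calb1 (-0.22 to 1.52). The groups overlapped for all 4, all 4 intervals hold 0, and the limma adjusted p lay between 0.483 and 0.601. Their median of 0.68 stands beside a median of -0.0032 over all tested genes and 0.46 for the CA1 markers. Without vehicle-treated CUG300 mouse 3 the differences fell to 0.31 for Dsp, 0.25 for C1ql2 and 0.099 for Calb1, and without mouse 2 they rose to 1.54, 1.19 and 1.02. Prox1 did not follow mouse 3 (0.43 without it). Its difference was 0.014 without vehicle-treated CUG300 mouse 1, 0.86 without mouse 2, 0.19 without CWG-cPIP mouse 2 and 0.73 without CWG-cPIP mouse 3.

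The third comparison sets the CWG-cPIP-treated CUG300 mice against the CUG10 mice, so it shares a group with each of the others. Again 0% of tested genes were called (smallest limma adjusted p = 0.0879), and unadjusted p-values under 0.05 were found for 1207 higher and 790 lower genes. Fibcd1 differed by -0.14 (95% interval -0.49 to 0.21) and Mpped1 by -0.18 (-0.58 to 0.21), and the groups overlapped in both. Wfs1 was higher by 0.33 (0.06 to 0.59, unadjusted p = 0.0209, limma adjusted p = 0.289), C1ql2 by 0.70 (-0.13 to 1.54, adjusted p = 0.448) and Calb1 by 0.66 (-0.21 to 1.53, adjusted p = 0.4998). These 3 markers were higher without overlap, where 13.4% of all tested genes were higher and 12.4% lower without overlap. The spread shared over all groups includes that of the vehicle-treated CUG300 mice. With only the CUG10 and CWG-cPIP mice in the fit, C1ql2 was called (adjusted p = 0.0315), among 14 genes. Prox1 differed by 0.56 (-0.38 to 1.50), Dsp by 0.52 (-0.69 to 1.72), Pou3f1 by 0.08 (-0.43 to 0.60) and Bok by -0.42 (-1.07 to 0.23), and all 4 overlapped. The median was 0.61 over the dentate markers, -0.029 over the CA1 markers and 0.00047 over all tested genes. The thalamus list of 8 genes, none of them called, had a median of 0.72 in this comparison, with 8 positive and 5 higher without overlap. With the thalamus level of each mouse as a covariate, chosen after seeing the data, the dentate median was -0.40, with C1ql2 at -0.37, Calb1 at -0.43, Dsp at -0.44 and Prox1 at 0.66, and none was called.

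**Figure D4:**
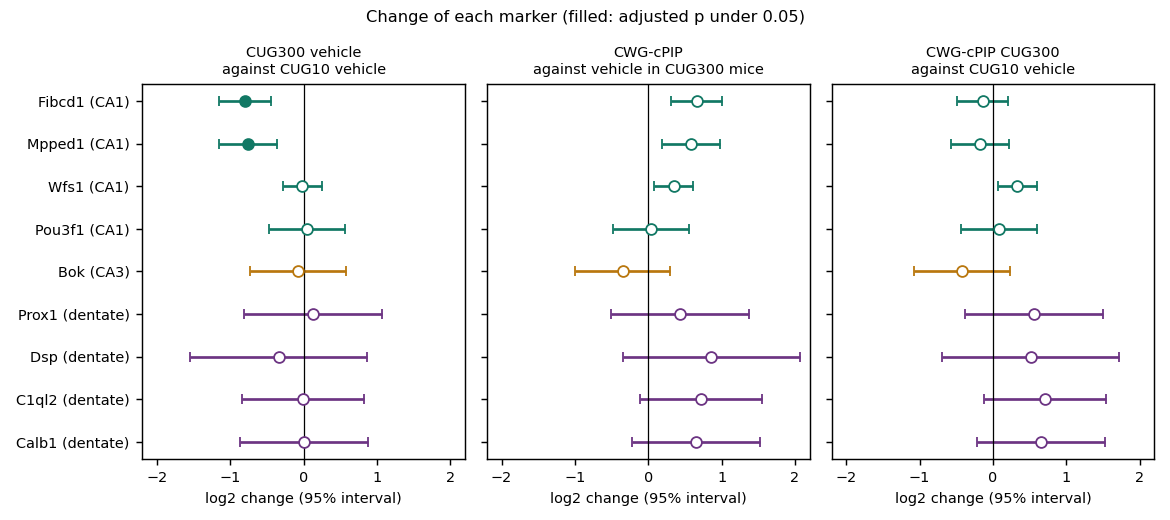
log2 change (x axis) with its 95% interval from limma for each of the 9 markers (y axis) in the 3 comparisons, coloured by subfield and filled where the adjusted p was under 0.05. Filled points are Fibcd1 and Mpped1 in the first panel, and the dentate intervals are the widest in every panel.

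Other genes known from the same subfields were taken from written lists. The 8 other CA1 genes had a median difference of -0.23 between vehicle-treated CUG300 and CUG10 mice, where 1 was called lower and 7 were not called. Nov, a secreted matricellular protein, differed by -0.73 (limma adjusted p = 0.182), Man1a by -0.22 and Spink8 by -0.02, and none of these 3 was called. Of 9 other CA3 genes none was called, at a median of 0.03. The CA3 gene Grik4, a kainate receptor subunit, differed by -0.33 (adjusted p = 0.123), Cpne4 by -0.23 and Iyd by 0.08. Of 8 CA2 genes 7 were tested, and 2 fell and 5 were not called (median -0.26). Amigo2, a cell adhesion protein, fell by 0.81 (limma adjusted p = 0.0464) and Necab2, a calcium-binding protein named after its value was seen, by 0.76 (adjusted p = 0.0388). The CA2 regulator of G-protein signalling Rgs14 differed by -0.29, and Sostdc1, which the choroid plexus also expresses, by 0.81 (adjusted p = 0.209). The medians of the CA1 and CA2 lists turned to 0.10 and 0.081 when each mouse was centred on general neuron genes. In this CA1 list 1 gene was then called lower. In the CA2 list 0 genes were then called lower, so the calls of Amigo2 and Necab2 were lost, and 1 was called higher (Cacng5, named after its value was seen).

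Of 12 other dentate granule cell genes none was called in any of the 3 comparisons. Their medians were -0.082 between vehicle-treated CUG300 and CUG10 mice, 0.48 between CWG-cPIP and vehicle, where 11 of 12 were positive, and 0.44 between CWG-cPIP and CUG10 mice, where 11 of 12 were positive and 7 were higher without overlap (13.4% of all tested genes). C1ql3, a close relative of C1ql2, gave -0.22, 0.96 and 0.74 in that order, and the lactase gene Lct -0.05, 0.83 and 0.78. Gabrd, the delta subunit of the GABA-A receptor, gave -0.54, 0.21 and -0.34, and the zinc finger gene Glis3 0.69, -0.26 and 0.43. The level of this list per mouse followed that of the 4 markers, with -0.40, 0.56 and -0.69 in the vehicle-treated CUG300 mice 1, 2 and 3. The same mouse was highest and the same mouse lowest. This order was not particular to dentate genes. The other CA3 genes (0.0065, 0.14 and -0.10) and the general excitatory neuron genes (-0.19, 0.028 and -0.32) shared it. Of 6 genes of immature dentate neurons none was called in the first comparison, with Dcx at -0.31, Neurod1 at 0.01, Sox11 at 0.32 and Eomes at 0.50 (limma adjusted p = 0.0571). Of 4 hilar mossy cell genes 1 was called. Csf2rb2, which encodes a cytokine receptor subunit of immune cells and has the near-identical copy Csf2rb, rose by 2.14 (limma adjusted p = 0.0288). Calb2, encoding calretinin, was at 0.69 (adjusted p = 0.0924) and Drd2 at -0.49.

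Lists of genes that neurons share were read in the same way. Of 10 general neuron genes 3 fell and 7 were not called in the first comparison, at a median of -0.38, and 6 were lower without overlap, beside 16.7% of all tested genes. The 3 that fell were Nefl (neurofilament light chain, by 0.54, limma adjusted p = 0.0316), Syt1 (synaptotagmin, by 0.51, 0.0430) and Eno2 (neuronal enolase, by 0.49, 0.0246), the last named after its value was seen. Snap25 differed by -0.42 and Rbfox3 by -0.24. On the written list of 8 general excitatory neuron genes Tbr1 fell by 0.97 (adjusted p = 0.0207) and 7 were not called. Among these were Slc17a7 (-0.62, adjusted p = 0.0513), Satb1 (-0.65, 0.0521) and Neurod2 (0.11). Tbr1 differed by -1.06 between CWG-cPIP and CUG10 mice (limma adjusted p = 0.0879). Whether all excitatory neurons share the genes of this list was not checked. Of 8 interneuron genes none was called (median -0.40, with Gad1 at -0.38, Gad2 at -0.43, Pvalb at -0.64 and Sst at -0.76). Centering each mouse on the general neuron genes moved the median of all tested genes from -0.011 to 0.33. Relative to these genes Fibcd1 was still called, lower by 0.47 (-0.47, limma adjusted p = 0.0235), and Mpped1 was not (-0.42, adjusted p = 0.0681).

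Markers of other cells and regions also differed between these mice, and their part in the results above was not tested. The choroid plexus list (9 genes) stood at -1.41, 0.085 and 1.45 in the CUG10 mice, 1.74, 0.51 and 1.14 in the vehicle-treated CUG300 mice and -1.17, -1.11 and -1.23 with CWG-cPIP. None of its genes was called, and its medians were 0.98, -2.22 and -1.24 in the 3 comparisons. Ttr, its most abundant product, gave 2.26, -4.84 and -2.58, Folr1 1.19, -2.58 and -1.39 and Clic6 1.20, -2.95 and -1.75. The thalamus list (8 genes, none called) stood at -0.12, -0.45 and -0.76, then 0.014, 0.44 and -0.60, then 0.56, 0.21 and 0.70. Within the vehicle-treated CUG300 group mouse 2 was highest and mouse 3 lowest, as for Dsp, C1ql2 and Calb1 but not Prox1, which was lowest in mouse 1. Its gene Rora, a nuclear receptor, was the gene whose values were closest to those of C1ql2. Its Tcf7l2 gave 0.93, 1.43 and 2.36, and Prkcd 0.69, -0.14 and 0.55. With the choroid plexus level of each mouse as a covariate the adjusted p of Fibcd1 and Mpped1 in the first comparison were 0.0962 and 0.127, and with that of the thalamus list 0.0908 and 0.0961, at changes from -0.89 to -0.65.

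Cortex and striatum genes (9, none called) had a median of -0.65 in the first comparison, with Ppp1r1b at -1.07, Cux2 at -0.65 and Rorb at 0.08. Their median was -0.23 between CWG-cPIP and vehicle and -0.84 between CWG-cPIP and CUG10 mice. In the last of these 7 were negative, 2 positive and 3 lower without overlap, beside 12.4% of all tested genes. Oligodendrocyte lineage genes (8, none called) had a median of -0.61 in the first comparison, with Pdgfra at -0.87, Olig1 at -0.79 and Cspg4 at -0.71. Of 9 meningeal genes, a list given because meningeal cells also express Dsp, 2 rose: Dcn by 1.69 (limma adjusted p = 0.0328) and Lum by 1.28 (0.0273). Slc47a1 was at 0.04 and Slc22a6 at 0.40. The meningeal list stood at -0.29, 0.30 and 0.89 in the vehicle-treated CUG300 mice, highest in mouse 3. Dsp was lowest in that mouse, and whether meningeal RNA contributes to the level of Dsp was not tested. All 10 interferon-stimulated genes rose in the same comparison (median 3.40, with Isg15 at 3.96, Rsad2 at 3.82 and Ifit1 at 3.57), and their level was 1.57, 1.12 and 1.53 in the vehicle-treated CUG300 mice and 0.85, -0.92 and 1.56 with CWG-cPIP, against -2.32, -1.44 and -1.96 in the CUG10 mice.

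**Figure D5:**
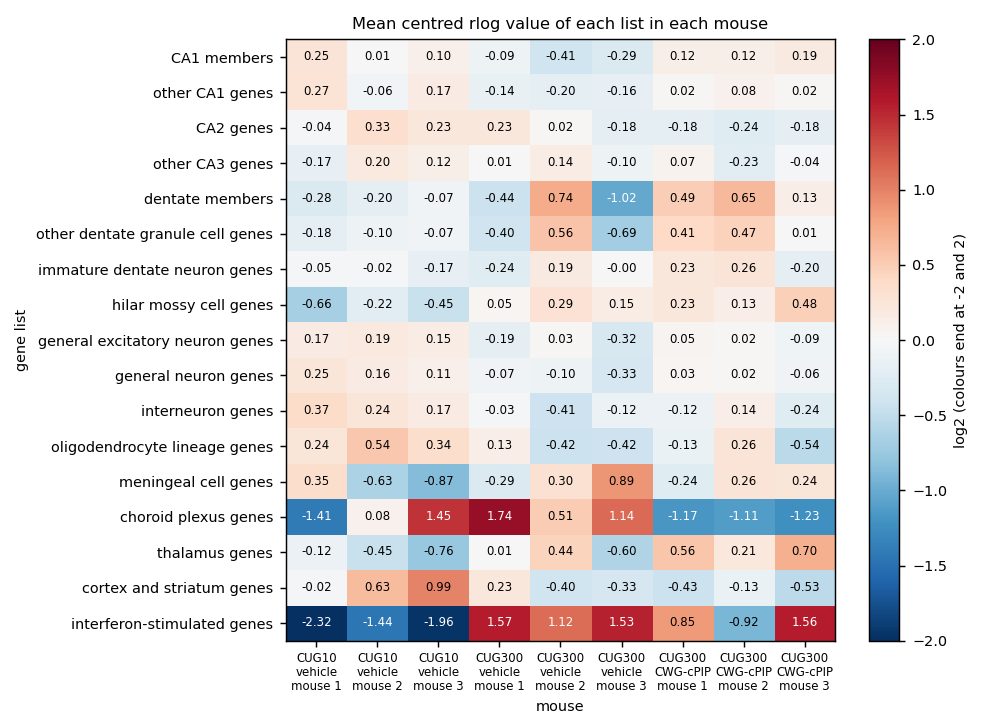
Mean centred rlog value (log2 scale, colour and number) of each gene list (y axis) in each mouse (x axis); colours end at -2 and 2. The dentate markers and the other dentate granule cell genes share their highest and lowest mouse within the vehicle-treated CUG300 group, mice 2 and 3. The other CA3, general excitatory neuron and thalamus genes have the same highest and lowest mouse there.

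For each marker the genes with the most similar pattern were sought by Pearson correlation of rlog values over the 9 mice among 13659 genes, as a description. Fibcd1 was nearest to Zcchc18 (r = 0.98), Rufy3 (0.97) and Nap1l3 (0.97), and Mpped1 to Chst8 (0.98), Dalir (0.97) and Cdkl4 (0.97). For Wfs1 they were Abhd17c (0.90), Fpgt (0.88) and Sytl4 (0.85), the lowest leading value of the 9 markers. Pou3f1 was nearest to Mrpl21, Rnf126 and Cgref1 (0.94 each) and Bok to Elp6 (0.96), Cox6b2 (0.95) and Nrbf2 (0.94). Among the dentate markers Prox1 was nearest to Ints2, Usp8 and Atf7 (0.98 each) and Dsp to Jph1, Grm7 and Amer3 (0.98 each). C1ql2 was nearest to Rora, Bhlhe22 and Lct (0.97 each), and Calb1 to Prune2 (0.97), Bhlhe22 (0.96) and St6galnac5 (0.96). Bhlhe22, a basic helix-loop-helix transcription factor, was shared by C1ql2 and Calb1, and Lct is on the list of granule cell genes. C1ql2 and Calb1 themselves correlated at 0.95, so a shared neighbour adds little. The highest of 13659 correlations over 9 mice are high by selection. The largest fall when the 2 mice farthest from the marker's median were left out was from 0.90 to 0.66, for Wfs1 and Abhd17c.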

How the data were processed

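Hippocampal RNA of 9 mice, 3 per group, was sequenced with paired reads. Trim Galore 0.6.6 served for trimming, STAR 2.7.9a for alignment to GRCm38/mm10 and RSEM 1.3.3 for gene quantification, per the study's methods and the submitters' processing notes. From these the authors made rlog values with DESeq2 1.36.0 and deposited them on the log2 scale. How rlog was set, which annotation was used and whether counting was stranded are not given in the sources used here. Since no counts were used here, depth per mouse is unknown and no count model was used.

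Groups came from the labels. Of 24411 genes, 5175 stood at 0 in every mouse and 14867 had a mean of at least log2(10). These were tested with limma 3.58.1 (R 4.3.3) with 1 mean per group, a variance trend and 3.03 prior degrees of freedom, with Benjamini-Hochberg adjustment within each of 3 comparisons. The procedure was also run on simulated data with independent noise and the same spread in every group. In the real data the spread differed between the groups, so that run does not check the calls given here. Likeness was sought among 13659 tested genes, leaving out the markers, predicted gene names, symbols turned into dates (27) and genes of 1 chromosome not reported here. The markers and the gene lists were chosen with earlier results of these data known. From each list the text names the first 2 genes as written and the 2 that changed most in the first comparison, and for each marker the 3 genes of highest Pearson correlation. Some genes that this rule names are not reported here. Alternatives were median centering, quantile scaling, centering on general neuron genes, other filters on low values, limma without trend or in its robust form, only the 2 groups compared, a replicate block, a choroid plexus covariate, an adjusted p under 0.1 and leaving out each mouse. A thalamus covariate was chosen after seeing the data.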

Additional observations from a re-analysis of the deposited data

How the results depend on the processing

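The 2 calls of Fibcd1 and Mpped1 in vehicle-treated CUG300 against CUG10 mice held under median centering, quantile scaling, both other filters, limma in its robust form and without trend, and only the 2 groups compared. Markers called were 1 after centering on general neuron genes and 0 with the choroid plexus or the thalamus covariate, and ranged from 0 to 2 when 1 mouse was left out. Genes called were 1 with the choroid plexus covariate, 0 with the thalamus covariate, 4678 after centering on general neuron genes (4631 higher, 47 lower), 3108 at an adjusted p under 0.1 and 0 to 2489 with 1 mouse left out, against 1592. With CWG-cPIP against vehicle they were 3 with only the 2 groups compared and 0 to 3 with 1 mouse left out. For CWG-cPIP against CUG10 they were 14, with 1 marker called (C1ql2), when only these groups were fitted, 5 after centering on general neuron genes, 21 at an adjusted p under 0.1 and 0 to 567 with 1 mouse left out. Depth is unknown, so no limit from it can be given. The cause of these shifts was not tested, other than that a left-out mouse or group leaves fewer samples. Same-numbered mice correlated from -0.50 to 0.41 in their deviations (3 of 9 pairs over 0.1) and others from -0.52 to 0.46 (7 of 18 pairs over 0.1). Deviations from a group mean cancel out within the group, so these values depend on each other. They cannot settle whether the replicate numbers pair the mice. The replicate block gave 1512 genes and the same 2 markers, Fibcd1 (adjusted p = 0.0333) and Mpped1 (0.0371).

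Changes of sign concerned markers that were not called. In vehicle-treated CUG300 against CUG10 mice they were Bok at 0.26, C1ql2 at 0.33 and Wfs1 at 0.32 after centering on general neuron genes, C1ql2 at 0.14 with the choroid plexus covariate, Calb1 at -0.067 and Pou3f1 at -0.028 after median centering, Calb1 at -0.45 with the thalamus covariate and Wfs1 at 0.037 after quantile scaling. With CWG-cPIP against vehicle Pou3f1 was at -0.13 after centering on general neuron genes. With CWG-cPIP against CUG10 mice Fibcd1 was at 0.033 after that centering, and with the thalamus covariate C1ql2 was at -0.37, Calb1 at -0.43 and Dsp at -0.44. The thalamus list holds Rora, the gene nearest to C1ql2 in pattern. With 1 mouse left out, the ranges in the first comparison were -0.31 to 0.11 for Bok, -0.48 to 0.45 for C1ql2, -0.36 to 0.56 for Calb1, -1.03 to 0.21 for Dsp, -0.093 to 0.31 for Pou3f1, -0.31 to 0.54 for Prox1 and -0.11 to 0.044 for Wfs1. They were -0.23 to 0.18 for Pou3f1 with CWG-cPIP against vehicle, and -0.067 to 0.19 for Pou3f1 and -0.34 to 0.0047 for Mpped1 with CWG-cPIP against CUG10 mice. The median of the CA1 markers was -0.053, 0.30 and 0.15 in the 3 comparisons after centering on general neuron genes, and that of the dentate markers -0.46, 0.20 and -0.40 with the thalamus covariate. With 1 mouse left out the CA1 median ranged from -0.082 to 0.0996 with CWG-cPIP against CUG10 mice.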
